A study of Homo sapiens with 6 samples.

Results

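The genes described here encode the endosomal complexes Retriever and CCC and their cargo adaptor SNX17, 16 genes in all, as they behaved in a genome-wide CRISPRi screen. They were chosen by name: C16orf62 and DSCR3, the library's names for VPS35L and VPS26C, then CCDC22, CCDC93, COMMD1 to COMMD10, SNX17 and its paralog SNX31. Of the 209070 sgRNAs in each count table, 170 were listed under these names, 20 for COMMD6 and 10 for each other gene. Reads were found for 85 of them, and all 85 passed the read minimum of 50 reads in at least one library, while the other 85 had 0 reads in all 6 libraries. At the transcription start site used for each gene there were 5 sgRNAs, so that 80 sgRNAs stood for the 16 genes.

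The screen was made in HEK293 FLP-In cells, a human embryonic kidney line in which a transgene enters at one recombination site, that carried dCas9-KRAB fused to BFP and a delta opioid receptor with the recycling motif of the mu opioid receptor. This receptor, DOR-MRS(WT), carried APEX2, a peroxidase that turns Amplex UltraRed into a fluorescent product, and was stably expressed in populations that the labels describe as clonal. By the labels, the cells of every library were transduced at a multiplicity of infection near 0.2 and selected with puromycin at 0.75 μg/ml. They had 8 days of knockdown and 90 min of 10 μM DADLE, an opioid peptide, and were reacted with 100 μM Amplex UltraRed and sorted into the bottom and the top quartile of fluorescence. An untreated sort, other receptors and the extent of knockdown of each gene were not analysed here.

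The sgRNAs were divided over 3 sublibraries, called H17, H23 and H456, and each gave 1 library per quartile with no replicate. Totals ranged from 23426498 to 50486627 reads per library. For each sgRNA, the share of reads in the top library was divided by that in the bottom library, and log2 of this ratio, centred on the median of the non-targeting control (NTC) sgRNAs of the same sublibrary, is called its phenotype, so that a negative value stands for lower receptor fluorescence. A gene was given the mean of its 5 sgRNAs, and each SD below is the spread between them. The central 90% of NTC sgRNAs lay between −0.76 and 0.48 for H17, between −0.45 and 0.41 for H23 and between −0.45 and 0.46 for H456. Because there was 1 library per quartile, P compares both libraries of one sort with sgRNAs as the units, not repeated sorts. No molecular identifiers marked the templates before PCR, so reads are not independent molecules and the counting SDs given below cover counting error only. The last letter of each library name in the labels contradicts the sample title, which spells out the quartile, and the titles set the direction. With the library names in their place every phenotype and shift would change sign, at the same size and P.

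Retriever is a trimer of VPS35L, VPS26C and VPS29 that resembles Retromer, in which VPS35 and VPS26A or VPS26B join the same VPS29. It works with the CCC complex, built from the coiled-coil proteins CCDC22 and CCDC93 and the COMMD family, and both together with DENND10 form the assembly called Commander. SNX17 binds NPxY-type motifs in the tails of cargo such as integrins and receptors of the LDL receptor family and passes them to Retriever for return from endosomes to the cell surface. Retromer with SNX27 is the parallel route for cargo with PDZ-binding tails, and the WASH complex builds the branched actin on which both routes rely.

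In CRISPRi, sgRNAs direct the repressor to the surroundings of a start site. The sgRNA letters themselves were not used here. To show the sequence next to the start sites, the 250 bases before the start site are given for the genes on which the text turns at 3 points: CCDC22, the member that passed the test; VPS35L (C16orf62), the subunit that defines Retriever; and both start sites of COMMD6, the member with sgRNAs at more than 1 site. They are RefSeq sequences of GRCh38.p14, written 5′ to 3′ on the strand of the gene, and which sgRNAs lie within them was not tested. Capitals mark matches on either strand to the ETS-type motif CCGGAAG, the CCAAT box, the GC box GGGCGG or the TATA-type motif TATAAA.
CCDC22, chrX:49235220-49235469, plus strand: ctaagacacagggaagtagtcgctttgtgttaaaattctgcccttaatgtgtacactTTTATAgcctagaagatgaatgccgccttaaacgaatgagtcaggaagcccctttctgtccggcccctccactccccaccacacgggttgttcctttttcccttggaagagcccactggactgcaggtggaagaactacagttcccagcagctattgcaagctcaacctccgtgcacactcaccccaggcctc
VPS35L, chr16:19555453-19555702, plus strand: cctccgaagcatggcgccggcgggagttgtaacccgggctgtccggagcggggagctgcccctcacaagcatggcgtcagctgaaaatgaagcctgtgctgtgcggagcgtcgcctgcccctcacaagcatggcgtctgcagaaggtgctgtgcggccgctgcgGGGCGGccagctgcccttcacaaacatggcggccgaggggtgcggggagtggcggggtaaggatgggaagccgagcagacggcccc
COMMD6, chr13:75537842-75538091, minus strand: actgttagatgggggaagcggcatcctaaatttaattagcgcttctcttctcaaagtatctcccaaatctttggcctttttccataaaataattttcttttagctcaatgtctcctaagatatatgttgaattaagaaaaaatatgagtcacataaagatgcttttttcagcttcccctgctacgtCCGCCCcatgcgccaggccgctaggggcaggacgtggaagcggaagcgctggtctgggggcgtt
COMMD6, chr13:75549440-75549689, minus strand: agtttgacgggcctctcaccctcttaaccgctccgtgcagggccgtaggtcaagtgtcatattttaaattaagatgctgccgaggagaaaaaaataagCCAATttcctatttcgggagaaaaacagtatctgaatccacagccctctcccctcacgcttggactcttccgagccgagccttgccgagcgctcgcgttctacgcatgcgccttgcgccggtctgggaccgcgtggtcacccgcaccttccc

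In all, 19 such windows were matched to 13 of the member genes, and 35116 windows of the same length served for comparison. TATAAA was found in the windows of CCDC22 and COMMD10, 2 of 19, against 10.7% of all windows. The ETS-type motif CCGGAAG was found in windows of COMMD2, COMMD10 and VPS26C (DSCR3), 3 of 19, against 8.52% of all. CCAAT was found in 4 of 19 windows and 32% of all, and GGGCGG in 9 of 19 and 42.6%. The median GC content was 60.4% over the member windows, with a range of 44.8% to 80%, and 58% over all windows. The median number of CpG was 20 against 11. These matches describe the letters of the windows, and whether a factor binds there was not analysed here.

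Of the 16 genes, 13 had a negative and 3 a positive phenotype, with values from −0.43 for CCDC22 to 0.26 for SNX17 and a median of −0.13. Over all 18905 genes tested, 49.6% were negative and 50.4% positive, and the median was 0.0013. CCDC22 alone among the 16 passed the threshold, an exact Mann-Whitney P against the NTC sgRNAs with a Benjamini-Hochberg adjusted value under 0.05 over all genes. At this threshold 0.381% of all genes were called negative and 0.0952% positive. At an unadjusted P under 0.05 there were 2 members, CCDC22 and COMMD10, both negative, where 4.05% of all genes were called negative and 4.07% positive. No member was called positive at either level. By the hit rule of the methods, which combines effect and P against pseudogenes of NTC sgRNAs, CCDC22 was again the member called, where 0.783% of all genes were negative hits.

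Among the 80 member sgRNAs, 54 (67.5%) were negative, against 48.9% of all targeting sgRNAs analysed. They ranged from −1.44 to 0.72. Beyond the NTC 5th percentile lay 7 of them (8.75%), against 5.04% of the 101314 targeting sgRNAs, and these belonged to CCDC22 with 2 and to COMMD1, COMMD2, COMMD5, COMMD7 and COMMD9 with 1 each. Beyond the 95th percentile lay 2 (2.5%), both against SNX17, where 4.96% of targeting sgRNAs lay. The median SD over the sgRNAs of a gene was 0.22 for the members and 0.24 for all genes. In 13 of the 16 members the mean was closer to 0 than 1 SD. This was not counted over all genes, so it does not set the members apart.

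The subunits that distinguish Retriever from Retromer stayed near 0. VPS35L, listed as C16orf62, is the large scaffold of the trimer. Its sgRNAs had 2538, 1431, 1388, 1039 and 2011 reads in the bottom library of H456 and 1227, 795, 728, 693 and 1250 in the top library. Their phenotypes were −0.28, −0.08, −0.16, 0.18 and 0.08, so that 3 were below 0 and 2 above. The mean was −0.05 ± 0.19 (SD, n = 5 sgRNAs; exact P = 0.568, adjusted P = 0.928). This placed the gene in the middle range of its sublibrary, with 35.7% of 6956 genes lower.

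VPS26C, listed as DSCR3, is the arrestin-fold subunit of Retriever. Its sgRNAs had 2122, 1146, 1510, 871 and 1469 reads in the bottom library of H23 and 2131, 1201, 1457, 1355 and 1545 in the top library. Their phenotypes were −0.24, −0.18, −0.30, 0.39 and −0.17, with 4 of 5 below 0 and 1 opposed to them. The mean was −0.10 ± 0.28 (SD, n = 5 sgRNAs; exact P = 0.224, adjusted P = 0.82). The opposed sgRNA lay 3 bases from the last one on the same strand, and without it the mean was −0.22.

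VPS29, the subunit that Retriever shares with Retromer, had −1.60 ± 0.46 (SD, n = 6 sgRNAs; exact P = 4.86e-13, adjusted P = 9.18e-09), the lowest value of the 6042 genes in H23. The Retromer counterpart of VPS35L is VPS35, with −0.85 ± 0.75 (SD, n = 5 sgRNAs; exact P = 0.00987, adjusted P = 0.381). The shift of C16orf62 over VPS35 was 1.06 (96.8% interval −0.33 to 1.5; exact P = 0.151 between 5 and 5 sgRNAs, 0.302 after adjustment over 6 pairs), and the sgRNAs of both genes overlapped in value. C16orf62 was read in H456 and VPS35 in H23. The sgRNAs against VPS35 ran from −1.56 to 0.25, and 1 of 5 was positive. By the hit rule of the methods, as rewritten here, VPS29, VPS35 and VPS26A were called, all negative, where 0.783% of all genes were negative hits. VPS26B was not called by it.

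VPS26A and VPS26B, the Retromer counterparts of VPS26C, had −0.71 ± 0.92 and −0.26 ± 0.27 (SD, n = 5 sgRNAs each), at exact P of 0.0375 and 0.0392 and adjusted P of 0.572 and 0.578. The shift of DSCR3 over VPS26A was 0.47 (96.8% interval −0.28 to 2.03; exact P = 0.421, adjusted 0.631). The shift over VPS26B was 0.04 (−0.22 to 0.61; exact P = 0.69, adjusted 0.829). A difference between the Retriever subunits and their Retromer counterparts was thus not shown by these sgRNAs. With 5 sgRNAs per gene, a pair could pass by itself only if the values of its genes did not overlap at all. The intervals ran from −0.33 to 1.5 for VPS35, from −0.28 to 2.03 for VPS26A and from −0.22 to 0.61 for VPS26B. They do not show likeness either. FAM45A, the library's name for a DENND10 gene, had −0.02 ± 0.24 (SD, n = 5 sgRNAs; exact P = 0.806).

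Of the coiled-coil subunits of the CCC complex, CCDC22 passed the test and CCDC93 did not. CCDC22, a scaffold that clasps the COMMD proteins and meets VPS35L, held a lower share of the reads in the top than in the bottom quartile with each of its sgRNAs. They had 3114, 1467, 370, 1428 and 1150 reads in the bottom library of H23 and 2769, 1145, 306, 1494 and 1026 in the top library. The phenotypes were −0.42, −0.60, −0.52, −0.18 and −0.41. All 5 were below 0, and 2 lay beyond the NTC 5th percentile. The fourth was negative although its reads rose slightly, because the top library of H23 was the deeper one, with 47989659 reads against 40946430.

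The mean of CCDC22 was −0.43 ± 0.16 (SD, n = 5 sgRNAs), a share in the top quartile 25.6% lower than that in the bottom quartile relative to NTC sgRNAs (exact P = 0.000215, adjusted P = 0.0474). It ranked 100th from the lowest of 6042 genes. The counting SDs of its sgRNAs were 0.0377 to 0.111, and each phenotype lay at least 3.40 counting SDs from 0. The adjusted value stood close to the threshold: it was 0.0539 after both libraries were thinned to the same total, 0.0527 with start sites pooled over the genes, 0.129 against sgRNAs for olfactory receptors in place of NTC sgRNAs, and without sgRNA 1, 2, 3 or 5 it was 0.15, 0.187, 0.18 and 0.148. The mean itself stayed between −0.51 and −0.38 over the settings tried.

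CCDC93, which pairs with CCDC22 along its coiled coil, had 1155, 781, 2677, 1332 and 882 reads in the bottom library of H456 and 640, 511, 1338, 716 and 463 in the top library. Its phenotypes were −0.08, 0.16, −0.23, −0.13 and −0.16, of which 4 were below 0 and none beyond the NTC percentiles. The mean was −0.09 ± 0.15 (SD, n = 5 sgRNAs; exact P = 0.248, adjusted P = 0.833). The shift of CCDC22 over CCDC93 was −0.33 (96.8% interval −0.57 to −0.05), with an exact P of 0.0159 between 5 and 5 sgRNAs that did not pass after adjustment over the 6 pairs (0.0952). The lowest sgRNA of CCDC93, at −0.23, lay below the highest of CCDC22, at −0.18. The genes belonged to different sublibraries, and each was centred on its own NTC sgRNAs.

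The 10 COMMD proteins share a carboxy-terminal COMM domain and assemble into a ring within the CCC complex. Of their genes, 8 were negative and 2 positive, beside 49.6% and 50.4% of all genes, and the median was −0.18. None passed the adjusted threshold, which 0.381% of all genes passed as negative and 0.0952% as positive. At an unadjusted P under 0.05 was 1, where 4.05% of all genes were negative and 4.07% positive. Of their 50 sgRNAs, 34 (68%) were negative, against 48.9% of all targeting sgRNAs analysed.

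COMMD10 had the lowest P of the family. Its sgRNAs had 2321, 2176, 1593, 1881 and 2020 reads in the bottom library of H456 and 1205, 945, 850, 861 and 904 in the top library. The phenotypes were −0.18, −0.44, −0.14, −0.36 and −0.39. All 5 were below 0, and none lay beyond the NTC 5th percentile. The mean was −0.30 ± 0.13 (SD, n = 5 sgRNAs; exact P = 0.00239, adjusted P = 0.206), rank 238 of 6956 genes. Its SD was among the smaller ones of the members, which ranged from 0.12 for COMMD4 to 0.61 for COMMD7.

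COMMD7 had a lower mean, −0.38 ± 0.61 (SD, n = 5 sgRNAs; exact P = 0.136, adjusted P = 0.76), that rested on 1 sgRNA. The reads were 838, 394, 1118, 1284 and 1288 in the bottom library of H17 and 652, 117, 711, 1031 and 1002 in the top library. The phenotypes were −0.05, −1.44, −0.34, −0.0039 and −0.05. The second sgRNA held the lowest value of all member sgRNAs, while 3 of the others lay within 0.05 of 0. Without it the mean was −0.11, and with reads summed over the 5 sgRNAs, a setting added after the data were seen, it was −0.17. CCDC22, COMMD7 and COMMD10 were the members whose sgRNAs were all negative, 3 of 16 (18.75%), against 4.45% of all genes, and no member had sgRNAs that were all positive, as 5.36% of all genes did.

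COMMD2 showed sgRNAs on both sides of 0. They had 61, 167, 827, 414 and 1574 reads in the bottom library of H17 and 68, 92, 754, 166 and 1292 in the top library. The phenotypes were 0.47, −0.55, 0.18, −1.01 and 0.03. The highest of these came from the sgRNA with the fewest reads among the members and had a counting SD of 0.254. The mean was −0.18 ± 0.59 (SD, n = 5 sgRNAs; exact P = 0.823, adjusted P = 0.976), and its sign turned without the fourth sgRNA, to 0.03.

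COMMD8 had −0.25 ± 0.25, with 4 of 5 sgRNAs negative and values from −0.56 to 0.09 (SD, n = 5 sgRNAs; exact P = 0.0875, adjusted P = 0.69). COMMD9 had −0.19 ± 0.27, again with 4 of 5 negative and values from −0.46 to 0.24 (SD, n = 5 sgRNAs; exact P = 0.0914, adjusted P = 0.698). COMMD1, the founding member of the family, known for copper handling and the turnover of NF-κB, had −0.18 ± 0.34 with 4 of 5 negative (SD, n = 5 sgRNAs; exact P = 0.192, adjusted P = 0.801). In these 3 genes the sgRNA opposed to the others was at 0.09, 0.24 and 0.27.

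COMMD1 and COMMD5 each held 1 sgRNA that stood apart. For COMMD1 it had 1064 reads in the bottom and 797 in the top library of H23, a phenotype of −0.66, and without it the mean was −0.07. For COMMD5, whose mean was −0.16 ± 0.24 (SD, n = 5 sgRNAs; exact P = 0.199, adjusted P = 0.803), it had 1141 and 911 reads and a phenotype of −0.57, and without it the mean was −0.06. The other 4 sgRNAs against COMMD5 lay between −0.12 and 0.04.

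COMMD3 and COMMD4 were close to 0. COMMD3 had −0.06 ± 0.20 (SD, n = 5 sgRNAs; exact P = 0.681), and its 5 sgRNA positions are all listed in the library under COMMD3-BMI1 too, a read-through transcript with the neighbouring gene, so that the values of both names are the same. COMMD4 was positive at 0.09 ± 0.12 (SD, n = 5 sgRNAs; exact P = 0.351, adjusted P = 0.872), and 4 of its sgRNAs lay between −0.0048 and 0.13.

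COMMD6 was the member with sgRNAs at more than 1 start site. At the first site the reads were 1726, 2039, 759, 1003 and 458 in the bottom library of H17 and 1575, 1687, 707, 735 and 344 in the top library, and the phenotypes were 0.18, 0.04, 0.21, −0.14 and −0.10. Their mean was 0.04 ± 0.16 (SD, n = 5 sgRNAs; exact P = 0.63). At the second site the reads were 849, 858, 245, 633 and 668 in the bottom library and 659, 1099, 189, 477 and 485 in the top library, and the mean was 0.06 ± 0.34 (SD, n = 5 sgRNAs; exact P = 0.976). There 4 of 5 sgRNAs were slightly negative, between −0.15 and −0.05, and the other was at 0.67. That sgRNA lay beyond the NTC 95th percentile of H17, 0.48, and was not among the 80 member sgRNAs counted above. The median positions of the sgRNAs at these sites were 11618 bases apart, and the printed windows start 11598 bases apart. Neither site gave a call.

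The cargo adaptor SNX17 had the highest value of the 16 genes, opposite in sign to that of CCDC22. Its sgRNAs had 1560, 559, 780, 1557 and 1924 reads in the bottom library of H23 and 2043, 1090, 1239, 1957 and 2153 in the top library. The phenotypes were 0.14, 0.72, 0.42, 0.08 and −0.08. Of these, 4 were above 0 and 2 beyond the NTC 95th percentile, and the highest came from the sgRNA with the fewest reads, 559 and 1090, at a counting SD of 0.075.

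The mean of SNX17 was 0.26 ± 0.32 (SD, n = 5 sgRNAs; exact P = 0.0708, adjusted P = 0.658), and 97.2% of the 6042 genes in H23 were lower. Without the highest sgRNA it was 0.14. The gene did not pass the test, so that neither lower nor higher fluorescence was shown for it. SNX31, a paralog best known from the bladder epithelium, had −0.07 ± 0.15 (SD, n = 5 sgRNAs; exact P = 0.496). The shift of SNX17 over SNX31 was 0.30 (96.8% interval −0.04 to 0.77; exact P = 0.0952, adjusted 0.286).

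SNX27, the PDZ-containing adaptor of Retromer, had 0.19 ± 0.22 (SD, n = 5 sgRNAs; exact P = 0.0832). The shift of SNX17 over SNX27 was 0.03 (96.8% interval −0.36 to 0.54; exact P = 1, adjusted 1), an interval that leaves room for differences in both directions, between a gene read in H23 and one read in H456. None of the 6 pairs of related genes passed after adjustment. With 5 sgRNAs per gene, a pair could pass by itself only if the values of its genes did not overlap at all. The lack of a call therefore says little about likeness.

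Strand was compared over the pooled member sgRNAs and spacing among sgRNAs of one gene, while distance to the start site was not analysed here. Of the 80 member sgRNAs, 39 were on the plus strand, with a median of −0.15, and 41 on the minus strand, with a median of −0.08. The strands were unevenly spread over the sublibraries, with 17 plus and 8 minus in H17, 19 and 21 in H23, and 3 and 12 in H456. In 12 cases a pair of sgRNAs lay within 10 bases of each other on one strand, and the median difference between such neighbours was 0.22, next to 0.24 for 11378 such pairs over all genes and 0.25 for 96608 pairs farther apart. The COMMD3 sgRNAs 5 bases apart had −0.24 and −0.23. By contrast, the COMMD7 sgRNAs 9 bases apart had −1.44 and −0.34, and the DSCR3 sgRNAs 3 bases apart had 0.39 and −0.17. The sgRNAs of such a pair may not be independent, since their sites lie so close, and this was not tested.

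Other genes have start sites close to those of some members. UCHL3, with sgRNAs as near as 373 bases to those of COMMD6, had 0.08 ± 0.21 (SD, n = 5 sgRNAs; exact P = 0.381). Which of the COMMD6 start sites this distance belongs to was not analysed here, and the COMMD6 gene value is that of its first site. EIF2B4, with sgRNAs as near as 275 bases to those of SNX17, had 0.02 ± 0.35 (SD, n = 5 sgRNAs; exact P = 0.728), with 4 of 5 negative. For SNX17, 4 of 5 were positive, and the means of both genes were positive. Whether such closeness affects the values was not tested. Apart from these genes and COMMD3-BMI1, no gene had sgRNAs within 1000 bases of those of a member, among the 18814 genes matched to a chromosome.

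The members were spread over the sublibraries, 5 in H17, 8 in H23 and 3 in H456. Within them, 4 of 5, 6 of 8 and 3 of 3 were negative, with medians of −0.18, −0.13 and −0.09. The share of negative genes among all genes was 45%, 52.4% and 51.1%, in the same order. The NTC sgRNAs spread more widely within H17, at an SD of 0.47, than within H23 and H456, at 0.28 and 0.30, and the genes with the widest spread, COMMD2 and COMMD7, were both in H17.

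Partners of the pathway were read from lists of names. Of 5 WASH complex genes measured, 2 were negative and 3 positive, beside 49.6% and 50.4% of all genes, and the median was 0.03. None passed the threshold, which 0.381% of all genes passed as negative and 0.0952% as positive. None had an unadjusted P under 0.05, where 4.05% of all genes were negative and 4.07% positive. At such shares, the lack of a call among 5 genes says little about the complex. Of 19 genes listed as cargo or binding partners of SNX17 and Retriever, 12 were negative and 7 positive, beside 49.6% and 50.4% of all genes. Their median was −0.00801, and none passed. At an unadjusted P under 0.05 were 4 of them, ITGAV, ITGB5, LRP8 and NOTCH1, all positive and named after their values were seen, where 4.07% of all genes were positive at that level. A list of 9 partners of the CCC complex held genes of ubiquitin ligases and NF-κB signalling, and also MTMR2 and RAB21. Of the 9, 2 were negative and 7 positive, beside 49.6% and 50.4% of all genes, with a median of 0.06. None passed, and CUL3 and XIAP, both positive and also named after their values were seen, had an unadjusted P under 0.05, again beside 4.07% of all genes.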

How the data were processed

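Per the labels and methods, sgRNAs were amplified from genomic DNA with 27 PCR cycles, and reads were cropped to 38 bp and counted with ScreenProcessing 0.1. The deposited values are raw counts per sgRNA, not normalized. For the sgRNA positions, the sources used here name no genome build.

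Each gene was read in the sublibrary that held its sgRNAs, with at least 50 reads in at least one library and at least 10% of an sgRNA's reads there. To both counts 1 was added where one was 0. Start sites needed at least 2 sgRNAs, and where a gene had several, the one of lowest P was taken. Genes were tested by the Mann-Whitney test (exact, two-sided), adjusted by Benjamini-Hochberg over 18905 genes, and pairs of genes had a Hodges-Lehmann shift with its exact interval. The hit rule was rewritten here from the methods, so that its calls need not match those of the study. It allowed under 10% pseudogenes of 5 NTC sgRNAs per sublibrary and called 186 of the 18905 genes tested. With 1 library per quartile, edgeR (4.0.16) gave TMM factors only. Python 3.11.15, pandas 2.3.3, NumPy 2.4.6 and SciPy 1.17.1 were used, and the scripts were tested on simulated data. The times of agonist and knockdown were taken from the labels, and those in the methods differ.

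Named were the 16 members, VPS29, FAM45A, FAM45B (for which no value was obtained), VPS35, VPS26A, VPS26B, SNX27 and genes with sgRNAs within 1000 bases of a member's. Members and lists were chosen with earlier results of these data known. Alternatives were other read minimums, pseudocounts, centring, summaries, start sites, comparison sets, depth and hit rule. A check on one further gene is not reported here.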

Additional observations from a re-analysis of the deposited data

Results flagged for a closer look

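Reads of the member sgRNAs were also counted in libraries of sublibraries to which they do not belong. The 85 analysed member sgRNAs had 1255 reads there in all, against 213763 in their own libraries, which is 0.584% of their reads. Over all analysed sgRNAs this share was 1.76%. It drew attention because 69 of the 85 sgRNAs had more than 3 such reads over the 4 other libraries. The highest value in one library was 64 reads, for SNX31 sgRNA 5, and CCDC22 sgRNA 3, which had 370 and 306 reads in its own libraries, had 37. These reads enter no phenotype above, and their origin was not tested.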

How the results depend on the processing

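The count of members past the threshold, 1 as reported, was 0 when both libraries were thinned to one total (CCDC22 −0.42, adjusted P = 0.0539), without the strongest sgRNA of each gene (−0.38, 0.433), with start sites pooled (0.0527), with olfactory receptor sgRNAs in place of NTC sgRNAs (0.129), and without CCDC22 sgRNA 1, 2, 3 or 5. It was 1 without sgRNA 4 (0.0292) and under the other read minimums, pseudocounts and the hit rule. Centring left it at 1 by design, since a constant shift per sublibrary leaves the ranks of the test unchanged. No positive call arose in the 12 settings that gave that count. The median of the members lay between −0.165 and −0.0625 in 14 settings, with −0.0625 without the strongest sgRNA, and 12 or 13 members were negative. The sign turned for COMMD2 by the median over sgRNAs (0.0279), and without the strongest sgRNA for COMMD2 (0.0323), C16orf62 (0.00503) and COMMD6 (−0.0898, at its second start site). The 6 pairs of genes kept direction and side of the threshold in the settings tried. Of 229 settings of single members, 217 kept both. The centring settings could change direction only. The same holds for the median over sgRNAs, the 3 strongest sgRNAs and summed reads, which kept the P of the main test. Summing reads over sgRNAs was added after the data were seen and changed no direction. No paired analysis was possible because each quartile of a sublibrary had 1 library. Depth limits single sgRNAs most in H17, where 5 of 25 member sgRNAs had under 200 reads in a library.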
